A study of Mus musculus with 30 samples.

Results

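The cytosolic ribosomal protein genes were described across 30 RNA-seq samples of AML12 cells, an established line of mouse hepatocytes. Members were the protein-coding genes whose symbol begins with Rpl or Rps and a digit, with Rplp0, Rplp1, Rplp2 and Rpsa added. Ribosomal S6 kinase genes, Rps19bp1 and pseudogene symbols were left out. The rule uses names and no measured value, and it gave 85 of the 49089 identifiers in the count table. Of these, 80 passed the filter on low counts (31 of the 40S subunit, 45 of the 60S subunit and 4 paralogs), out of 11368 genes tested in all.

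The study asked how the forkhead factors FoxK1 and FoxK2 act on gene expression in the basal state and after insulin. Cells received control siRNA (Control), FoxK1 siRNA (FoxK1 KD), FoxK2 siRNA (FoxK2 KD) or both (DKD), a transient knockdown, so every sample was a transfected and serum-starved culture of the same line. Each of these 4 genotypes was studied without insulin (basal, labelled 0 nM and 0 h) and after 100 nM insulin for 6 h. The paper describes basal cells as mock treated, while their labels give 0 h. If basal cells were collected 6 h earlier, insulin and time in culture cannot be told apart in the insulin comparisons. There were 4 samples per group, except Control insulin and DKD insulin with 3 each. The labels do not say whether samples of a group were separate cultures, so each p-value measures the spread between these samples, which may be technical.

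A cytosolic ribosome is built from a small 40S subunit, which binds the mRNA and decodes it, and a large 60S subunit, which joins amino acids and guides the new chain out through a tunnel. Ribosomal protein mRNAs in mammals typically start with a cytosine followed by an unbroken run of pyrimidines, the 5′ terminal oligopyrimidine (TOP) tract, through which mTOR signalling downstream of insulin controls how well they are translated. RNA-seq of total cellular mRNA measures the amount of these mRNAs and not how many ribosomes read them. In bulk samples, fewer cells and less RNA per cell cannot be told apart.

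RefSeq windows around the annotated start (GRCm38.p6, 250 bases before to 50 after) were found for 65 of the 85 members. A run of 8 or more pyrimidines between 20 bases before and 30 bases after the start, read on the gene's strand, lay in 34 of the 65 (52.3%), against 21.5% of all 27025 genes with a window. The letters CCGGAAG, a core of ETS family sites searched on both strands, were in 26 members (40%), against 9.93% of all genes. TGTTTAC, a core of forkhead sites searched on both strands, was in 1 member (1.54%), against 4.05% of all genes. AAGATGGC, a YY1 core searched on both strands, was in 9.23% of members and 3.19% of all genes, and TATAAA, searched the same way, in 10.8% and 15.7%. A match is a string of letters and not a measured binding site.

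The windows of 9 members to which the results return are printed from 40 bases before to 20 bases after the annotated start, with every run of 8 or more pyrimidines in capitals. The first 5 have such a run. They are Rps12 at chr10:23787190-23787249 on the minus strand, Rpl27a at chr7:109519155-109519214 on the plus strand, Rps6 at chr4:86857348-86857407 on the minus strand, Rpl4 at chr9:64173347-64173406 on the plus strand and Rpl13a at chr7:45128726-45128785 on the minus strand. The last 4 have none in this stretch. They are Rps21 at chr2:180257339-180257398 on the plus strand, Rpl37a at chr1:72711220-72711279 on the plus strand, Rpl6 at chr5:121204461-121204520 on the plus strand and Rps3 at chr7:99483690-99483749 on the minus strand.
Rps12: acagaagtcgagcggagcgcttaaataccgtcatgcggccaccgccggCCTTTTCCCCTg
Rpl27a: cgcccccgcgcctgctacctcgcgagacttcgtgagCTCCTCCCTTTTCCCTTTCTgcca
Rps6: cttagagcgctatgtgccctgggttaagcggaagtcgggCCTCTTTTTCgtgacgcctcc
Rpl4: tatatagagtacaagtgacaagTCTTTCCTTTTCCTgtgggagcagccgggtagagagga
Rpl13a: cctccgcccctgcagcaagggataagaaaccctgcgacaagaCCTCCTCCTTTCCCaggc
Rps21: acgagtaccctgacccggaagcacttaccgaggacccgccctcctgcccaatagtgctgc
Rpl37a: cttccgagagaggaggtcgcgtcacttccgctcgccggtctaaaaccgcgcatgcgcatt
Rpl6: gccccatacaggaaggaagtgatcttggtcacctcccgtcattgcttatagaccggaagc
Rps3: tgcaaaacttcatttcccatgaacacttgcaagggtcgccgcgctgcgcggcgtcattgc

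Totals ran from 2141460 to 5668270 counts per sample. The knockdowns were visible in the data: Foxk1 changed by −1.14 on the log2 scale in FoxK1 KD and −0.82 in DKD cells against Control in the basal state, and Foxk2 by −1.57 in FoxK2 KD and −1.49 in DKD cells. Foxk2 was also lower in FoxK1 KD basal cells, at −0.26 (adjusted p = 0.0487, edgeR). In FoxK2 KD basal cells Foxk1 was at −0.23 (adjusted p = 0.44, edgeR). Foxk1 itself was 0.62 log2 units lower after insulin in Control cells. Of 10 hepatocyte markers 7 were tested, with a summed level of 1495 to 2430 CPM (counts per 1000000 of the TMM-scaled library), but most of that was the keratins Krt18 and Krt8, while Alb averaged 10.4 CPM and Apoa1, Apoe and Ahsg were below the filter. None of the 5 fibroblast or 4 endothelial markers was tested, and of 5 macrophage markers only Csf1r was, at 1.89 to 21.4 CPM, with Adgre1 at 0 in all samples. The summed macrophage markers moved with the groups, at 8.22 to 12.9 CPM in Control basal, 17.9 to 22.1 in FoxK1 KD basal, 11.1 to 13.4 in FoxK2 KD basal, 15.7 to 18.2 in DKD basal and 4.09 to 6.59 CPM in Control insulin samples. The share of counts on mitochondrially encoded genes was 1.16% to 1.91% in Control basal, 0.881% to 1.13% in DKD basal and 0.929% to 1.19% in Control insulin samples, and the part of either in the results was not tested. Control basal replicate 1 stood apart from the other 3 in several members, and DKD insulin replicate 3 in others, and their values are given beside the results they touch.

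The members took a small and narrow share of each library. Their share of counts was 1.35% to 1.98% over the 30 samples. Group means were 1.66% ± 0.152 in Control basal, 1.47% ± 0.111 in FoxK1 KD basal, 1.70% ± 0.159 in FoxK2 KD basal and 1.84% ± 0.108 in DKD basal cells (SD, n = 4 each). After insulin the 4 group means lay between 1.57% in Control and 1.59% in DKD cells. All 4 DKD basal samples sat above the FoxK1 KD samples, basal and insulin alike, while both overlapped Control basal.

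**Figure D1:**
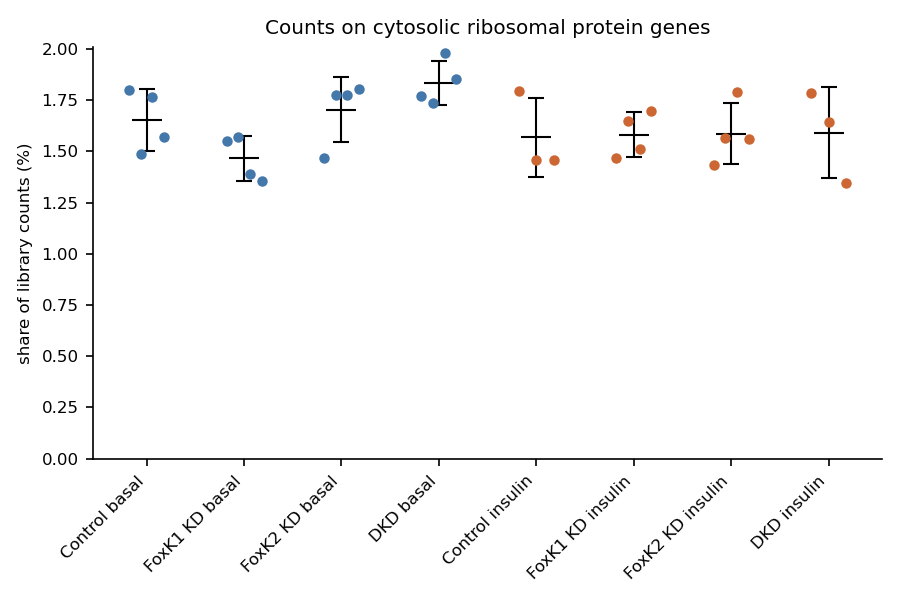
Share of each sample's counts that fell on the 85 cytosolic ribosomal protein genes, in percent, by group. Points are samples (blue basal, orange insulin), and the horizontal mark and bars are the mean ± SD. The points lie between 1.35% and 1.98%, and the DKD basal points lie above those of both FoxK1 KD groups.

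The counts per gene were very unequal. The mean level per kilobase of transcript ran from 2.59 CPM for Rpl23a to 1835 CPM for Rpl36a, a ratio of 709, with a median of 90.9. After Rpl36a came Rplp0, the base of the ribosomal stalk, at 1752 CPM per kilobase, then Rpl39, a small protein of the exit tunnel wall, at 1149, and Rps14, a protein of the 40S platform, at 1058. The 10 genes with the most counts held 54.3% of all member counts. At the other end, Rpl24, which helps bridge the subunits, had 2 to 16 counts per sample, and 5 members were not tested at all. Rpl29 had 156 counts in the whole table, Rps27rt had 2, and Rpl10l, Rpl3l and Rpl39l were listed at 0 in every sample.

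These differences between genes cannot be read as mRNA amounts alone, because ribosomal protein genes have many processed copies. For each gene 1 principal (APPRIS) transcript was cut into every 50-base window. Of the 80 tested members, 78 shared at least 1 window with a pseudogene, and in 40 under 50% of windows were found in no other gene. Unique shares and levels per kilobase depend on the transcript chosen, which was long for some genes. It had 5179 bases for Rps15a (93.6% unique) and 3706 bases for Rps20 (92.4% unique). The share of unique windows was lowest in Rps27, at 1.35%, and its median over the 80 members was 49.7%. Among genes to which the results return, the unique share was 6.16% in Rpl5, 14.4% in Rpl3, 15.4% in Rps6 and 16.4% in Rps12. It was 61.5% in Rpl37a and 73.6% in Rps21. Spearman's rho across the 80 genes between level per kilobase and unique share was 0.07, and with the number of pseudogenes sharing a window it was −0.20, both descriptions over genes of the same libraries. How the authors' counting treated reads with several matches is not given in the sources used here. For Rpl23a, Rpl24, Rpl13a and Rpl5, 62.3%, 47.0%, 35.4% and 26.7% of exonic bases also overlapped an exon of another gene.

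**Figure D2:**
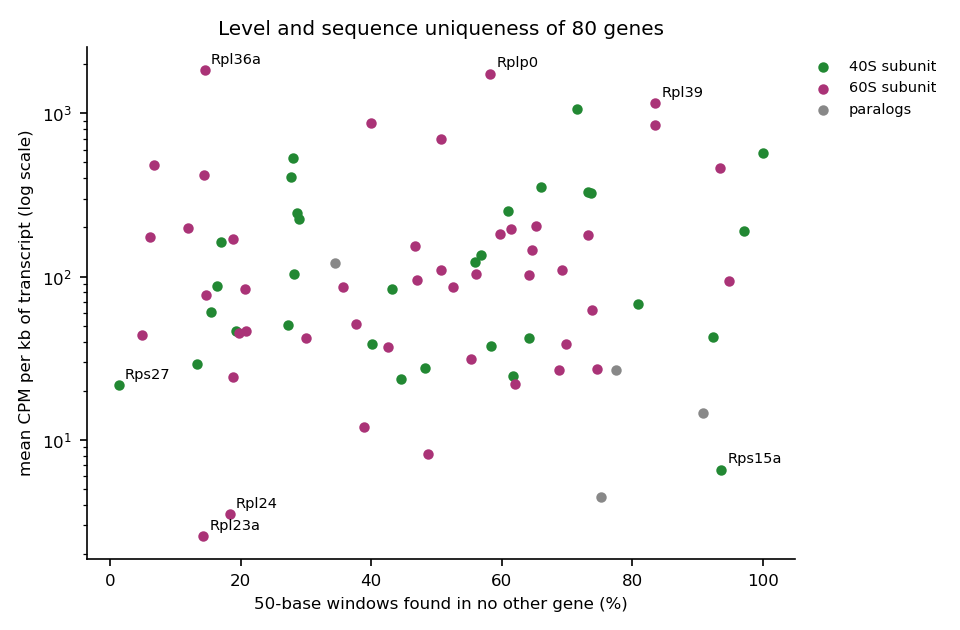
Mean level of the 80 tested genes over all 30 samples, in CPM per kilobase of transcript (log axis), against the percentage of their 50-base windows found in no other annotated gene. Each point is a gene, coloured by subunit. Levels span 2.59 to 1835, and genes of high and low level appear across the range of unique shares.

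In the basal state FoxK1 KD lowered a few members and raised none. Against Control, 6 of the 80 members were lower and 0 higher at a false discovery rate (FDR) below 0.05 by edgeR's quasi-likelihood test, where 4.71% of all tested genes were called lower and 3.39% higher (8.09% either way). The median log2 fold change of the members was −0.16, against −0.01 over all tested genes, and 57 of 80 were below 0. The members called were Rpl12, Rps27a, Rpl27a, Rps9, Rps2 and Rpl27. The zero count of higher members was also obtained with DESeq2 and limma-voom, which called 8 and 6 members, and 24 members (30%) had an unadjusted p below 0.05, as did 23.5% of all tested genes.

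Rpl12, which sits at the base of the stalk that recruits elongation factors, stood at 2021, 875, 1064 and 773 CPM in the 4 Control basal samples and at 766, 709, 701 and 766 CPM in the FoxK1 KD basal samples. Every FoxK1 KD sample was lower than every Control sample, but the Control group was stretched by its replicate 1. The log2 fold change was −0.68 ± 0.17 (SE; adjusted p = 0.0118, edgeR with Benjamini-Hochberg adjustment), and without Control basal replicate 1 it was −0.29 with an adjusted p of 0.19. Rps27a, made as a fusion of ubiquitin and a 40S protein, stood at 762, 426, 424 and 482 CPM in Control and at 380.4, 341, 315 and 363 CPM in FoxK1 KD cells. Again the groups did not overlap, and the log2 fold change of −0.58 (adjusted p = 0.0127, edgeR) became −0.34 (adjusted p = 0.14) without the same Control sample. Rps2, a protein at the mRNA entry channel, was 287, 246, 290.3 and 256 CPM in Control and 205, 204, 209 and 191 CPM in FoxK1 KD cells, a log2 fold change of −0.41 (adjusted p = 0.0182, edgeR). Its groups were also apart, with both of them tight.

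The other 3 calls in FoxK1 KD cells overlapped Control in at least 1 sample. Rpl27a, a 60S protein, was at −0.57 (adjusted p = 0.0198), Rps9, at the mRNA entry channel, at −0.43 (0.0246), and Rpl27, a 60S protein, at −0.41 (0.0319), all log2 fold changes by edgeR with Benjamini-Hochberg adjustment. Without Control basal replicate 1, 0 members were called, without FoxK1 KD basal replicate 4 there were 2, and without Control basal replicate 2 or 4 there were 13 and 11. The count was also 0 when only the 2 groups were fitted.

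FoxK2 KD changed 1 member in the basal state, at a background of 0.378% of all genes called (0.167% lower and 0.211% higher). Rps21, a small 40S protein, stood at 298, 188, 194 and 149 CPM in Control and at 117, 128, 120.2 and 120.5 CPM in FoxK2 KD cells. All 4 knockdown samples were lower than all 4 Control samples. The log2 fold change was −0.76 ± 0.16 (adjusted p = 0.0213, edgeR), and without Control basal replicate 1 it was −0.53 (adjusted p = 0.10). The call was also lost without any 1 of the 4 FoxK2 KD samples and when only the 2 groups were fitted. The median over members was −0.01, equal to the median over all genes, and 9 members had an unadjusted p below 0.05 (11.2%, as over all genes).

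In DKD cells members moved both ways. Against Control in the basal state 7 were higher and 6 lower, 13 of 80, where 21.1% of all genes were called (10.3% higher and 10.8% lower), and the member median was 0.09 against −0.00 over all genes. The higher members were Rpl6, Rplp1, Rpl23, Rps19, Rpl7a, Rpsa and Rpl4, and the lower ones Rpl37a, Rps21, Rps12, Rpl12, Rps15a and Rps4x. This split changed with a correction for GC content and transcript length together. Spearman's rho of log2 fold change with GC content was 0.48 across all tested genes, and after the trend with GC content and length was removed 3 members were higher and 8 lower, with a member median of −0.02. Shares of all tested genes called higher or lower after that correction are not given here. The comparisons of the 3 knockdowns share the same 4 Control basal samples.

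Rpl37a, a 60S protein with a zinc finger fold, had the lowest adjusted p of any member in this comparison. It stood at 176, 146, 156 and 155 CPM in Control basal cells and at 83.8, 82.3, 82.4 and 80.1 CPM in DKD basal cells. The DKD samples were all close to 82 CPM and far below the lowest Control sample. The log2 fold change was −0.94 ± 0.10 (adjusted p = 6.41e-08, edgeR), and it stayed between −1.07 and −0.89 over 15 alternative settings. In the single knockdowns the same gene was at −0.26 (FoxK1 KD, adjusted p = 0.088) and −0.24 (FoxK2 KD, adjusted p = 0.33) by edgeR.

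Rps21 stood at 131, 112, 107 and 137 CPM in DKD basal cells, under every Control basal sample. Its log2 fold change was −0.75 ± 0.16 (adjusted p = 0.000901, edgeR), next to −0.47 (adjusted p = 0.055) in FoxK1 KD and −0.76 in FoxK2 KD cells. Rps12, a protein of the 40S beak, was 72.9, 58.3, 98.5 and 67.9 CPM in Control and 48.0, 55.0, 47.2 and 43.4 CPM in DKD cells. Here too the groups were apart, at −0.62 ± 0.14 (adjusted p = 0.00143, edgeR). Rps4x, the X-linked form of a 40S protein, had the tightest groups of these, with 468, 461, 488 and 483 CPM in Control and 382, 359, 391 and 334 CPM in DKD cells, at −0.38 ± 0.08 on the log2 scale (adjusted p = 0.000509, edgeR).

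Among the members that were higher in DKD cells, Rpl6, a 60S protein, was at 89.9, 88.8, 105 and 90.5 CPM in Control and at 152, 139.9, 152 and 136 CPM in DKD cells. The groups were well apart, with a log2 fold change of 0.63 ± 0.14 (adjusted p = 0.0011, edgeR). Rplp1, 1 of the acidic proteins of the stalk, was 252, 414, 350.1 and 477 CPM in Control and 536, 531, 563 and 508 CPM in DKD cells. All DKD samples were above all Control samples, whose own values were widely spread, and the log2 fold change was 0.52 (adjusted p = 0.023, edgeR). Rpl23, which lies on the face of the 60S subunit that meets the 40S subunit, was 235, 191, 242 and 178 CPM in Control and 302, 281, 326 and 273 CPM in DKD cells, at 0.48 (adjusted p = 0.00395, edgeR), again without overlap. Rplp1 was no longer called after the GC and length trend was removed, and neither were Rps19, Rpl7a, Rpsa and Rps15a. Of the 13 called members, 9 had groups that did not overlap (69.2%), close to the 68.7% of all called genes. This share of called members was lower in FoxK1 KD basal cells (3 of 6, against 69.1% of all called genes). After insulin it was also lower in Control (58.8% against 77.5%), FoxK2 KD (56.2% against 83.6%) and DKD cells (73.3% against 92.0%). It was higher after insulin in FoxK1 KD cells (90.9% against 83.1%) and in FoxK2 KD basal cells (1 of 1, against 95.3%). The count of members called in DKD basal cells was 7 without DKD basal replicate 1 or 3 and 8 without DKD basal replicate 2.

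**Figure D3:**
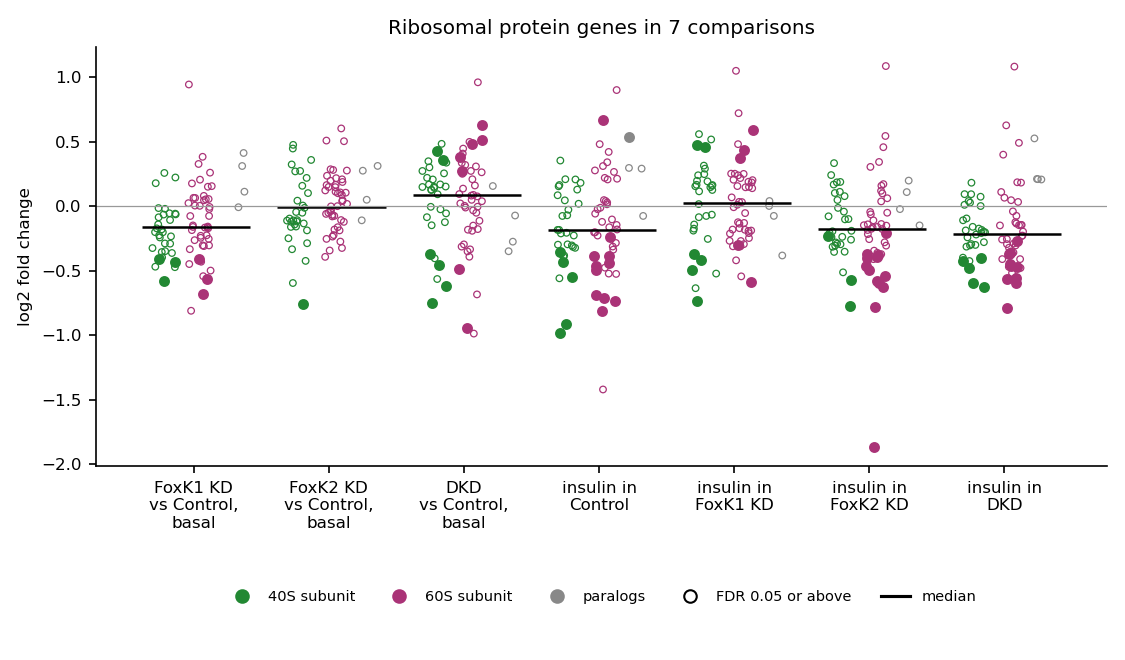
Log2 fold change of each of the 80 tested genes in the 3 basal knockdown comparisons and the 4 insulin comparisons. Points are genes, coloured by subunit, filled where the FDR is below 0.05 by edgeR, and the horizontal line is the median of the 80. Filled points lie on both sides of 0 in DKD basal, Control insulin and FoxK1 KD insulin comparisons and only below 0 in the other 4; medians run from −0.22 to 0.09.

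A minority of members were called lower after 6 h of insulin in each genotype, and most members did not pass the test. In FoxK1 KD cells that minority was a smaller share than among all tested genes. In Control cells 15 were lower and 2 higher (background 13.1% lower and 12.4% higher), in FoxK2 KD cells 16 lower and 0 higher (13.7% and 14.4%), and in DKD cells 15 lower and 0 higher (7.99% and 8.31%). In FoxK1 KD cells 6 were lower and 5 higher (15.4% and 16.2%). Backgrounds in either direction were 25.4% in Control, 28.1% in FoxK2 KD, 16.3% in DKD and 31.6% in FoxK1 KD cells. As a share of the 80 members, those called lower came to 18.75% in Control, 20% in FoxK2 KD, 18.75% in DKD and 7.5% in FoxK1 KD cells. The median log2 fold changes of the members were −0.18 in Control, −0.18 in FoxK2 KD, −0.22 in DKD and 0.02 in FoxK1 KD cells, where the medians over all genes lay between −0.01 and 0.01.

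The FoxK1 KD split of 6 lower and 5 higher also changed with the joint correction for GC content and length. Spearman's rho of log2 fold change with GC content was 0.34 over all genes in that comparison, and with the GC and length trend removed 16 members were lower and 1 higher. Rpl38, Rps2 and Rpl36 were among the members of that group which lost their call as higher. In the other 3 genotypes the lower calls stayed in the large majority, with 18 lower and 3 higher in Control, 24 and 0 in FoxK2 KD, and 17 and 0 in DKD cells. Shares of all tested genes called with that trend removed are not given here. Whether the shift towards lower calls was particular to the members was not tested. DESeq2 called 16, 16, 14 and 12 members and limma-voom 15, 16, 14 and 11 in Control, FoxK2 KD, DKD and FoxK1 KD cells, and members at an unadjusted p below 0.05 numbered 27, 26, 27 and 23. These were 33.8%, 32.5%, 33.8% and 28.8% of the members, where the shares over all tested genes were 36.7%, 38.7%, 30.2% and 42.2%.

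Across the 4 genotypes 30 members were lower in at least 1, and 7 were higher in at least 1, with none called both ways. These are 37.5% and 8.75% of the members, against 26.0% and 25.7% of all tested genes, of which 0.484% were called both ways. Rpl3 was lower in all 4. Members lower in 3 genotypes included Rps12, Rps4x, Rpl37a and Rpl7, while 9 members were lower in 2 and 15 in 1 genotype. Of the lower calls, 10 in Control, 13 in FoxK2 KD, 10 in DKD and 2 in FoxK1 KD cells were of the 60S subunit, which holds 45 of the 80 members, and the others were of the 40S subunit. Fitted changes were below 0 in all 4 genotypes for 24 of the 80 members (30%) and for 23.7% of all tested genes.

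Rpl3, which reaches towards the centre where peptide bonds form, was 957, 641, 715 and 555 CPM in Control basal and 435, 414 and 439 CPM in Control insulin samples. It was 776, 748, 809 and 631 CPM in DKD basal and 419.5, 388 and 475 CPM in DKD insulin samples. In both genotypes the insulin samples were all lower than the basal ones. The log2 fold changes were −0.74 ± 0.12 in Control (adjusted p = 2.44e-05) and −0.79 ± 0.12 in DKD cells (adjusted p = 1.95e-05), and −0.49 in FoxK2 KD (0.0011) and −0.30 in FoxK1 KD cells (0.0385), by edgeR with Benjamini-Hochberg adjustment. The FoxK1 KD value lost its call under 6 of 15 alternative settings, while the other 3 kept theirs under every setting run. Only 14.4% of the 50-base windows of Rpl3 are in no other gene, and its pseudogene Rpl3-ps1 was at −1.07 in the same comparison in DKD cells (adjusted p = 0.00028, edgeR) and at −0.46 in Control cells (adjusted p = 0.12).

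Rps12 gave the largest drop with insulin in Control cells among called members. Its 44.3, 35.7 and 31.8 CPM in Control insulin samples all lay under the basal range of 58.3 to 98.5 CPM, at −0.99 ± 0.15 (adjusted p = 9.49e-06, edgeR). In FoxK2 KD cells it went from 61.4, 72.5, 75.9 and 55.8 CPM to 39.0, 33.0, 46.7 and 37.2 CPM, without overlap, at −0.77 ± 0.14 (adjusted p = 7.14e-05, edgeR). In FoxK1 KD cells the change was −0.42 (adjusted p = 0.0258) and in DKD cells, which started lower, −0.30 (adjusted p = 0.19) by edgeR. After insulin all 14 samples of the 4 genotypes lay between 31.8 and 52.0 CPM.

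Rpl27a fell in Control cells by 0.81 on the log2 scale (adjusted p = 0.000584) and in FoxK2 KD cells by 0.54 (adjusted p = 0.0099), both by edgeR. Its Control basal samples were 252, 118, 167 and 131 CPM, the first again replicate 1. Rpl22, which also has a role outside the ribosome, showed the same sample at 463 CPM beside 178, 224 and 196 CPM, and Control insulin samples at 179.8, 128 and 183 CPM. Its ranges overlapped, and the log2 fold change was −0.69 (adjusted p = 0.007, edgeR). Without Control basal replicate 1 the count of members called in Control cells was 12 in place of 17, with 11 of them shared, and without Control insulin replicate 2 it was 9. When only the 2 Control groups were fitted it was 5.

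The members that were higher after insulin in Control cells were Rpl7l1 and Rpl21. Rpl7l1, a paralog of Rpl7 with a role in ribosome assembly, was 25.8, 42.5, 30.02 and 32.5 CPM in basal and 51.4, 51.2 and 39.6 CPM in insulin samples. Basal replicate 2 overlapped the lowest insulin sample, and the log2 fold change was 0.53 ± 0.12 (adjusted p = 0.00143, edgeR). Rpl7 itself moved the other way, from 218, 188, 211 and 218 CPM to 181, 147 and 149 CPM, without overlap, at −0.39 ± 0.12 (adjusted p = 0.0134, edgeR). Rpl21, a 60S protein, was 74.6, 117, 75.4 and 119.8 CPM in basal and 173, 185 and 104 CPM in insulin samples, with overlap, at 0.66 (adjusted p = 0.0063, edgeR).

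**Figure D4:**
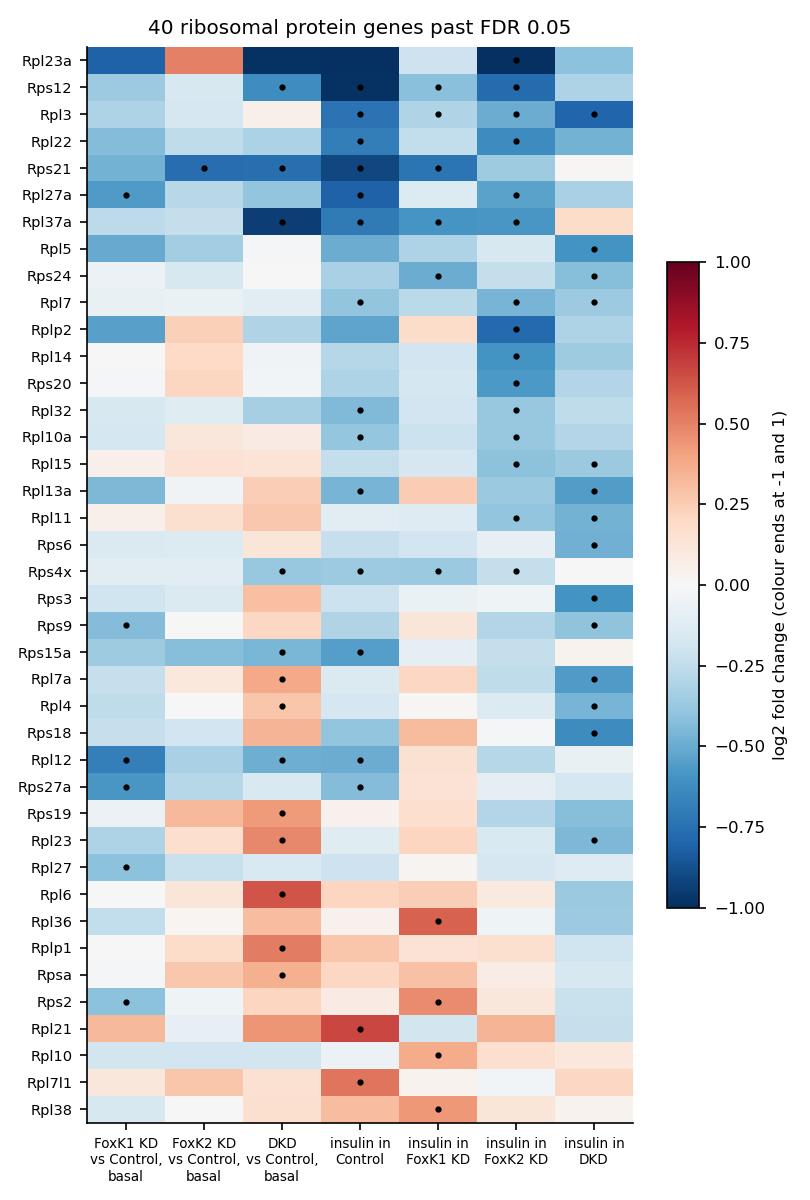
Log2 fold change of 40 of the 42 members that passed FDR 0.05 in at least 1 of 7 comparisons (rows) in the 3 basal knockdown and 4 insulin comparisons (columns). Blue is lower and red higher, the colour scale ends at −1 and 1, and dots mark FDR below 0.05 by edgeR. Rpl3 has a dot in all 4 insulin columns, Rpl37a and Rps21 are dark in the DKD basal column and near white or pale red in the DKD insulin column.

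Of the 15 members lower after insulin in DKD cells, 4 were also among the 15 lower in Control cells (26.7% of each list), among them Rpl3, Rpl7 and Rpl13a. The matching share over all genes called lower is not given here, so this overlap is not read as particular to the members. Rps3, which holds the mRNA at its entry, was 539, 475, 504 and 417 CPM in DKD basal and 337, 302 and 322 CPM in DKD insulin samples, without overlap, at −0.59 ± 0.13 (adjusted p = 0.00103, edgeR). In Control cells it was at −0.21 (adjusted p = 0.22). Rpl4, which lines the exit tunnel, was 1757, 1711, 1678 and 1495 CPM in DKD basal and 1298, 1120.2 and 1182 CPM in DKD insulin samples, at −0.47 ± 0.10 (adjusted p = 0.0012, edgeR), and at −0.16 in Control cells (adjusted p = 0.24). In the basal state Rpl4 had been higher in DKD than in Control cells (0.27, adjusted p = 0.0306) and Rps3 was at 0.30 (adjusted p = 0.059) by edgeR. The difference between the insulin effects in DKD and Control cells did not pass the test for either (−0.38, adjusted p = 0.31 for Rps3, and −0.30, adjusted p = 0.31 for Rpl4, by edgeR).

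Rps6, the 40S protein that is phosphorylated by S6 kinase after insulin, was 65.2, 63.4, 62.5 and 67.5 CPM in DKD basal and 52.0, 48.0 and 39.6 CPM in DKD insulin samples, at −0.48 (adjusted p = 0.0211, edgeR). Its mRNA was not called in the other 3 genotypes, where the values were −0.23 in Control, −0.19 in FoxK1 KD and −0.08 in FoxK2 KD cells. Rpl5 and Rpl11, which with 5S rRNA can bind the p53 regulator Mdm2, were at −0.60 (adjusted p = 0.0347) and −0.47 (adjusted p = 0.0277) in DKD cells by edgeR, and Rpl11 at −0.39 (adjusted p = 0.0289) in FoxK2 KD cells. The Rpl5 value ranged from −0.97 to −0.38 over 14 alternative settings and lost its call in 5 of them, with an adjusted p of up to 0.26. Rpl5 stood at 544, 443, 426 and 424 CPM in DKD basal and at 268, 199 and 437 CPM in DKD insulin samples, where replicate 3 lay inside the basal range. Rpl5 was also at −0.50 in Control cells (adjusted p = 0.059, edgeR), and Rpl11 at −0.10 (adjusted p = 0.65, edgeR). The difference between the insulin effects in DKD and Control cells did not pass the test for Rps6, Rpl5 or Rpl11. It was −0.25 for Rps6 (adjusted p = 0.62), −0.10 for Rpl5 (0.92) and −0.37 for Rpl11 (0.43) by edgeR. Rpl13a, a 60S protein also known for silencing mRNAs in inflammation, fell in Control by 0.47 on the log2 scale (adjusted p = 0.0409) and in DKD cells by 0.56 (adjusted p = 0.0192), both by edgeR. The DKD count of 15 fell to 7 without DKD insulin replicate 2 or replicate 3, to 8 without DKD basal replicate 1 and to 9 without DKD basal replicate 2.

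Of the 16 members lower after insulin in FoxK2 KD cells, the one with the largest fitted change rests on few reads. Rpl23a had 0 to 19 counts per sample over the whole table, and its fit of −1.87 ± 0.52 (adjusted p = 0.00653, edgeR) compared 2.47, 3.06, 2.59 and 4.18 CPM with 0, 0.275, 2.12 and 1.26 CPM. The others were better supported. Rplp2, the second acidic stalk protein, was 97.2, 161, 159.7 and 186 CPM in basal and 79.1, 60.8, 126 and 88.5 CPM in insulin samples, with overlap, at −0.78 ± 0.19 (adjusted p = 0.00186, edgeR). Rps20, in the 40S head, went from 139, 193, 236 and 223 CPM to 119, 136, 150.5 and 127 CPM, with basal replicate 1 inside the insulin range, at −0.58 ± 0.13 (adjusted p = 0.00105, edgeR).

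In FoxK1 KD cells the lower members were Rps21, Rpl37a, Rps24, Rps12, Rps4x and Rpl3. Rps24, a 40S protein mutated in some cases of Diamond-Blackfan anaemia, was 107, 124, 149.9 and 113 CPM in basal and 87.9, 104, 76.2 and 81.7 CPM in insulin samples, without overlap, at −0.50 ± 0.13 (adjusted p = 0.00292, edgeR). The higher ones included Rpl36, Rps2, Rpl38 and Rpl10. Rps2, lower in FoxK1 KD than in Control cells before insulin, went from 205, 204, 209 and 191 CPM to 273, 320.3, 259 and 272 CPM, at 0.47 ± 0.11 (adjusted p = 0.00146, edgeR), and its Control insulin samples stood at 344, 223 and 288 CPM. Rpl10, added late in 60S assembly, was the only one of the 5 higher members to keep its call as higher with the GC and length trend removed. Without FoxK1 KD insulin replicate 2 the count in FoxK1 KD cells was 7 in place of 11.

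After insulin no member passed the test between a knockdown and Control. The count was 0 of 80 in FoxK1 KD, FoxK2 KD and DKD cells by edgeR, DESeq2 and limma-voom, at backgrounds of 3.59%, 0.0264% and 1.21% of all genes called. Members at an unadjusted p below 0.05 by edgeR numbered 4, 2 and 3, or 5.0%, 2.5% and 3.75%, where the shares over all tested genes were 17.5%, 6.03% and 12.7%. The medians over members were 0.03, −0.01 and −0.02. Without Control insulin replicate 3 the FoxK1 KD count was 2, and with the GC and length trend removed it was 1. With no filter on low counts the counts were 3 in FoxK1 KD and 2 in DKD cells. Shares over all genes under these alternative settings are not given here.

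The effect of insulin itself was then compared between each knockdown and Control. In the FoxK1 KD and FoxK2 KD comparisons 0 members and 0 genes in all (background 0.0%) passed by edgeR, with 14 and 2 members at an unadjusted p below 0.05 (17.5% and 2.5%, against 13.4% and 5.5% of all genes) and 0 by DESeq2 and limma-voom. In DKD cells 2 members passed, Rpl37a and Rps21, both towards a higher value, where 1.54% of all genes were called. DESeq2 called 3 and limma-voom 1. The count was 4 without Control basal replicate 2 and 1 without Control basal replicate 1 or 3, Control insulin replicate 2, DKD basal replicate 1, 2 or 3, or DKD insulin replicate 3.

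Rpl37a went down with insulin in Control cells, from 176, 146, 156 and 155 CPM to 81.7, 123 and 85.8 CPM, a log2 fold change of −0.71 ± 0.11 (adjusted p = 9.21e-06, edgeR). FoxK1 KD cells went from 155, 132, 114 and 125 CPM to 80.9, 93.3, 92.3 and 82.8 CPM (−0.59, adjusted p = 5.28e-05, edgeR). FoxK2 KD cells went from 125, 144, 122 and 145 CPM to 94.1, 83.1, 85.9 and 94.2 CPM (−0.58, adjusted p = 4.28e-05, edgeR). In each of these 3 genotypes all insulin samples lay below all basal samples. DKD cells were already at 80.1 to 83.8 CPM in the basal state, and their insulin samples stood at 93.9, 84.7 and 100.1 CPM, all slightly above, at 0.18 ± 0.11 (adjusted p = 0.29, edgeR). The difference between the insulin effects in DKD and Control cells was 0.89 ± 0.16 (adjusted p = 0.00153, edgeR), and it kept its call in all 21 alternative settings, at 0.78 to 1.10.

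Rps21 followed the same order with more scatter. It was 122, 118 and 88.3 CPM in Control insulin samples against 149 to 298 CPM in basal ones, at −0.91 ± 0.18 (adjusted p = 0.000177, edgeR). In FoxK1 KD cells it went from 150.5, 112, 163 and 169 CPM to 75.7, 95.6, 93.1 and 93.5 CPM, at −0.73 ± 0.17 (adjusted p = 0.00101, edgeR). In both genotypes the groups did not overlap. In FoxK2 KD cells the change was −0.35 (adjusted p = 0.10) and in DKD cells 0.01 ± 0.18 (adjusted p = 0.98) by edgeR, where the insulin samples were 93.9, 99.8 and 172 CPM and replicate 3 was the high one. The difference between DKD and Control was 0.92 ± 0.25 (adjusted p = 0.0471, edgeR) and ranged from 0.57 to 1.09, losing its call in 12 of 21 alternative settings, among them the one without Control basal replicate 1. The basal and insulin comparisons of these 2 genes share their Control and DKD samples, so they are not separate observations.

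**Figure D5:**
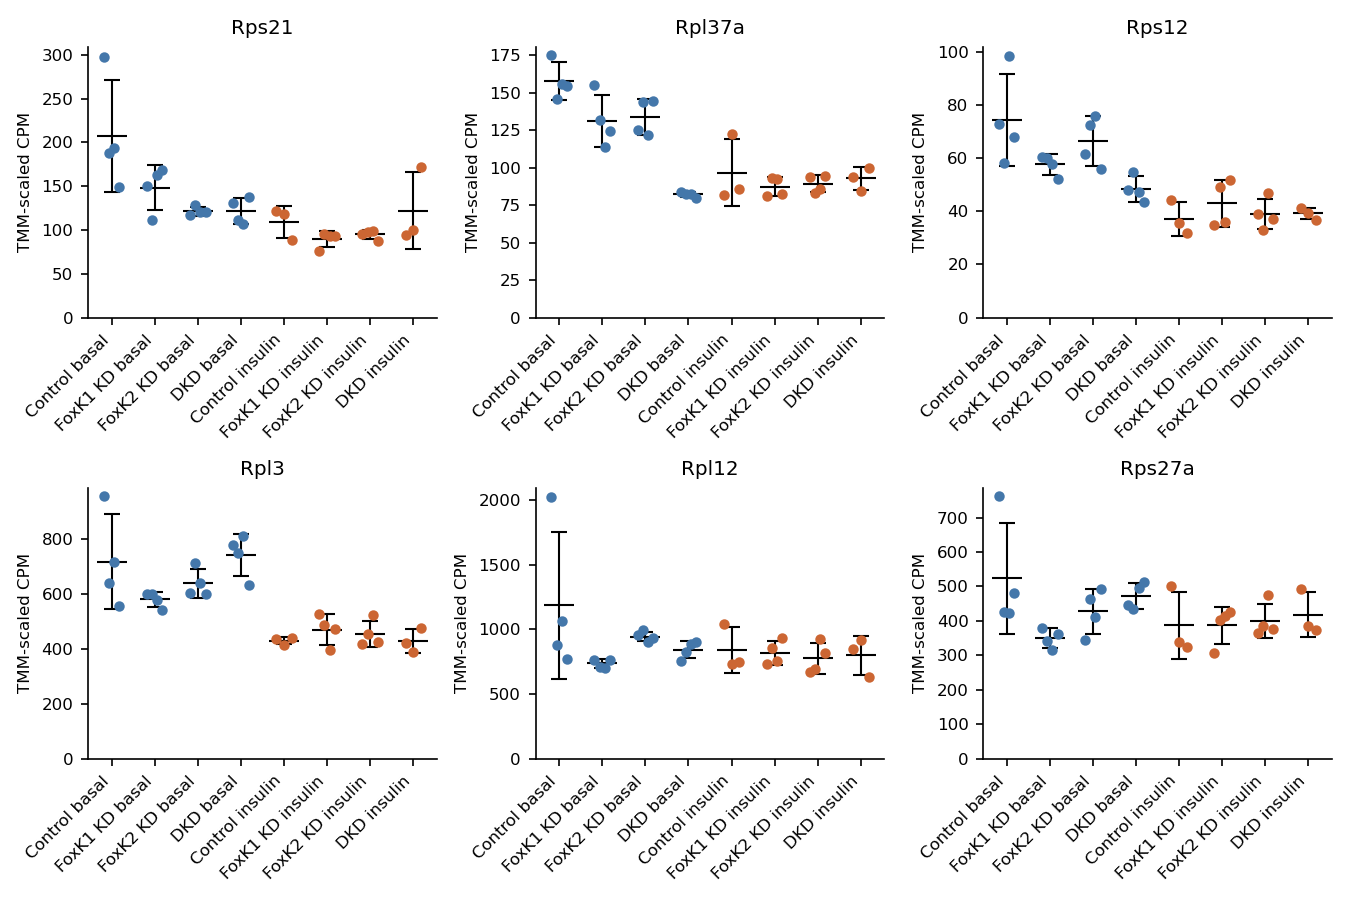
Level in every sample, in CPM scaled by TMM, of Rps21, Rpl37a, Rps12, Rpl3, Rpl12 and Rps27a by group. Points are samples (blue basal, orange insulin), and the horizontal mark and bars are the mean ± SD. DKD basal samples of Rpl37a lie at 80.1 to 83.8 CPM, with the insulin samples, and the first Control basal point is high for Rps21, Rpl3, Rpl12 and Rps27a.

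At an FDR below 0.25, the looser threshold used in the study, more members passed, as did more genes in all. In the basal state 26 members passed in FoxK1 KD (background 26.6%), 3 in FoxK2 KD (3.59%) and 34 in DKD cells (43.6%). After insulin 34 passed in Control (46.6%), 34 in FoxK1 KD (54.0%), 36 in FoxK2 KD (49.5%) and 33 in DKD cells (37.3%), of which 29, 17, 30 and 29 were lower. Against Control after insulin 3 passed in FoxK1 KD (15.1%), 0 in FoxK2 KD (0.238%) and 0 in DKD cells (6.66%), and for the difference in insulin effect 4 in FoxK1 KD (3.4%), 0 in FoxK2 KD (0.0%) and 8 in DKD cells (9.88%). Few of these changes exceeded 1.5-fold. With that fold added, 1, 2 and 7 members remained in the basal comparisons of FoxK1 KD, FoxK2 KD and DKD cells (backgrounds 3.6%, 0.792% and 7.6%), and 8, 6, 6 and 6 in the insulin comparisons (12.0%, 12.9%, 10.7% and 8.49%). After insulin against Control they were 1, 0 and 0 (3.31%, 0.158% and 1.85%), and for the difference in insulin effect 3, 0 and 5 (1.55%, 0.0% and 4.04%).

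Several members central to ribosome function moved little. Rplp0 had the most counts of any member, at 1804 to 2858 CPM, and was called in none of the 13 comparisons. Its fold changes in the 7 main comparisons lay between −0.15 and 0.15 on the log2 scale, with standard errors of 0.12 to 0.13. Rpl39 and Rpl36a were called in none, but their samples were far apart: Rpl39 ranged from 257 to 629 CPM within Control basal cells alone, and Rpl36a from 438 to 1469.9 CPM within DKD insulin cells. For such genes standard errors on the log2 scale were 0.27 to 0.36, which limits what could be detected for them. Rps23, at the decoding centre, ranged from 16.3 to 49.4 CPM, and Rps26, at the mRNA exit, from 7.76 to 27.2 CPM, with no call. Rpl17, near the tunnel exit, ranged from 18.3 to 68.0 CPM without a call. Some fitted log2 changes of these uncalled members were large. They included 0.72 ± 0.34 for Rpl39 after insulin in FoxK1 KD cells and 0.48 ± 0.20 for Rps23 in DKD basal cells. Rpl17 was at −0.52 ± 0.26 after insulin in Control cells. Rps19, often mutated in Diamond-Blackfan anaemia, was called once, higher in DKD basal cells at 0.42 (adjusted p = 0.0454, edgeR).

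The paralogs were expressed beside their partners at unequal levels. Rpl22l1 was at 42.2 to 101 CPM next to 116 to 463 CPM for Rpl22, and Rpl36al at 1.93 to 8.53 CPM next to 438 to 1469.9 CPM for Rpl36a. Rps27l, a p53 target, was at 8.33 to 26.1 CPM and Rps27 at 2.68 to 10.4 CPM, the gene with the fewest unique windows. Rpl7l1 was the only paralog called in any comparison. Of the ribosomal proteins whose symbols the rule does not take, Rack1, a signalling scaffold on the 40S subunit, stood at 617 to 1099.9 CPM and Fau at 30.6 to 59.7 CPM.

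Members called lower in an insulin comparison and the other tested members were set side by side for the promoter letters. A pyrimidine run of 8 or more near the start was in 16 of 23 with a window (69.6%) among those called lower and in 18 of 38 (47.4%) among the rest. CCGGAAG was in 7 of 23 (30.4%) and 18 of 38 (47.4%). These shares are descriptions without a test. Among the printed windows, Rps12, Rpl27a, Rps6, Rpl4 and Rpl13a were lower in at least 1 insulin comparison and carry a run, and so were Rps21, Rpl37a and Rps3, which carry none in the printed stretch.

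Other genes of the translation machinery were taken from 4 lists. The shares of all tested genes called lower and higher after insulin, against which their counts are read, were 13.1% and 12.4% in Control, 15.4% and 16.2% in FoxK1 KD, 13.7% and 14.4% in FoxK2 KD, and 7.99% and 8.31% in DKD cells. Of 24 translation factors and other TOP mRNAs, 10 were lower and 0 higher after insulin in Control, 10 and 1 in FoxK1 KD, 15 and 0 in FoxK2 KD, and 13 and 1 in DKD cells, with medians of −0.24, −0.14, −0.36 and −0.32 on the log2 scale. Eif4b, a helper of the helicase that unwinds mRNA starts, fell by 0.92, 0.96, 0.90 and 0.97 in Control cells and in FoxK1 KD, FoxK2 KD and DKD cells. Npm1, a nucleolar protein, fell by 0.96, 0.84, 0.91 and 0.55, and Tpt1, a translationally controlled growth protein, by 0.71, 0.41, 0.55 and 0.42, all on the log2 scale and past FDR 0.05 by edgeR. In the basal state 2 of the 24 were lower in FoxK1 KD cells (Eef2 at −0.45 and Pabpc1 at −0.36), 0 changed in FoxK2 KD cells, and 4 were higher and 4 lower in DKD cells, at basal backgrounds of 4.71% lower in FoxK1 KD and of 10.3% higher and 10.8% lower in DKD cells.

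Of 8 tested chaperones of single ribosomal proteins, 4 were higher and 2 lower after insulin in Control (backgrounds 12.4% and 13.1%), 3 and 1 in FoxK1 KD, 2 and 1 in FoxK2 KD, and 2 and 1 in DKD cells. Grwd1, which escorts Rpl3, was at 0.43 in Control and 0.86 in FoxK1 KD cells, and Heatr3, which helps import Rpl5, at 0.47 in Control, 0.32 in FoxK2 KD and 0.35 in DKD cells, all log2 fold changes past FDR 0.05. The lower ones were Nap1l1, at −0.41 in Control, −0.49 in FoxK1 KD, −0.47 in FoxK2 KD and −0.29 in DKD cells, and Aamp, at −0.41 in Control. Nap1l1 is also counted among the TOP mRNAs above. In the basal state Tsr2, the chaperone of Rps26, was lower in FoxK1 KD cells at −0.51 (adjusted p = 0.03, edgeR). Of 13 tested regulators of TOP translation, 2 were higher and 2 lower after insulin in Control, 2 and 1 in FoxK1 KD, 2 and 1 in FoxK2 KD, and 1 and 2 in DKD cells, near the shares over all genes in Control cells. Eif4e, the cap-binding protein, rose by 0.71 on the log2 scale and Myc, which activates ribosome genes, fell by 0.62 in Control cells. Cnbp, which binds TOP sequences, was lower in the basal state in FoxK1 KD (−0.74) and DKD cells (−0.75), and Larp1, which holds TOP mRNAs back, in DKD cells (−0.27).

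Of 276 ribosomal protein pseudogene symbols 10 were tested. A symbol near 0 in Control basal samples, such as Rps2-ps10, could pass the low-count filter only through groups where it was higher. Counts of higher symbols are therefore partly set by the filter, and no general rise is read from them. In DKD basal cells 6 of the 10 were higher than in Control and 0 lower, where 10.3% of all tested genes were higher and 10.8% lower. After insulin 3 were higher in Control (background 12.4%), 4 in FoxK1 KD (16.2%) and 4 in FoxK2 KD cells (14.4%), 1 was lower in FoxK1 KD cells (15.4%), and in DKD cells 1 was lower (7.99%) and 0 higher. Rps2-ps10 was listed at 0 in all 4 Control basal samples, at 0 to 0.660 CPM in FoxK1 KD basal and at 0 to 0.220 CPM in FoxK2 KD basal samples. It stood at 4.59 to 12.0 CPM in DKD basal samples and at 2.87 to 17.4 CPM in the insulin samples of all 4 genotypes. The groups in which it was present were those in which Rpl37a was low, and the relation was not tested. All ribosomal protein pseudogenes together held 104 to 201 of every 1000000 counts of a sample.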

How the data were processed

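RNA was isolated from AML12 cells after serum starvation with or without insulin, and libraries were made with an NEBNext mRNA kit and sequenced on a HiSeq instrument. The authors deposited raw read counts per gene for each sample, without normalization. The submitters' processing notes name CASAVA 1.8, STAR 2.4.2a, featureCounts and GRCm38.p4, while strand setting, treatment of multiply mapping reads and annotation release are not given in the sources used here, so reads of antisense or overlapping genes cannot be separated. Groups came from the sample labels. Identifiers were matched to GENCODE M21 (GRCm38) without version, which found 48435 of 49089, and the uniqueness of 50-base windows was computed from its transcripts. Promoter windows came from RefSeq (GRCm38.p6).

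Counts were filtered with filterByExpr, scaled by TMM and fitted in 1 model of 8 groups with edgeR 4.0.16 (R 4.3.3), and 13 comparisons were tested by the quasi-likelihood test with Benjamini-Hochberg adjustment over all 11368 genes, calling FDR below 0.05 with no fold minimum. The study's own test was limma, which was run as an alternative (limma-voom, limma 3.58.1). CPM are TMM-scaled, and values per kilobase divide by the length of the principal (APPRIS) transcript. Alternatives were DESeq2 1.42.0, no filter, TMM without ribosomal protein genes, removal of the trend with GC content and length, a fit of the compared groups alone, a replicate block, other thresholds and leaving out each of 30 samples. Counts of 11368 genes were simulated with 200 of them changed. That is a smaller share than was called in these data, at 21.1% for DKD against Control in the basal state and 25.4% for insulin in Control. For DKD against Control, the test recovered 16.4%, 64.2% and 84.8% of genes changed 1.25-, 1.5- and 2-fold, with 4.35% of calls false. For insulin in Control the values were 14.9%, 64.2% and 77.3%, with 10.3% false.

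The members and gene lists were chosen with earlier results of these data known. Named genes were central members, every paralog, and up to 5 members higher and 5 lower by fold change among calls in each comparison, plus up to 4 per gene list. Rps2-ps10, Rpl3-ps1, Rps20 and other genes outside this rule were chosen after their values were seen. Some genes are not reported here by name. Totals were 2141460 to 5668270 counts per sample, and the spread between samples exceeded counting error, since of 42 replicate pairs none agreed within sampling noise (smallest chi-square per degree of freedom 1.71).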

Additional observations from a re-analysis of the deposited data

Results flagged for a closer look

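Of 156 groups of 4 samples checked for a single distant value, 9 were flagged, and chance flags about 1 in 20 groups. In Control basal cells Rps27a stood at 762 CPM and Rpl22 at 463 CPM in replicate 1, and Rpl6 at 105 CPM in replicate 3, apart from the others. In FoxK1 KD cells the distant values were 102 CPM for Rps19 in the basal state and 75.7 CPM for Rps21 after insulin. In FoxK2 KD cells they were 118 CPM for Rpl7a and a member share of 1.47% in the basal state, both in replicate 1, and 312 CPM for Rpsa after insulin. In DKD basal cells Rpl5 stood at 544 CPM in replicate 1.

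The insulin effect differed between DKD and Control cells for 2 members by the test of the difference itself. For Rpl37a the effect in DKD minus that in Control was 0.89 on the log2 scale, and for Rps21 it was 0.92.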

How the results depend on the processing

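Counts of called members varied with the processing, while no named call reversed and every median and share of counts moved by less than the spread between samples. For the member median that spread was an SD of 0.13 on the log2 scale, larger than several of the medians. Leaving out 1 sample gave medians of −0.02 to 0.12 for insulin in FoxK1 KD and −0.05 to 0.06 for FoxK2 KD basal cells. The other basal and insulin comparisons kept the sign of their median. With no filter on low counts, the members called were 21 (FoxK1 KD), 8 (FoxK2 KD) and 24 (DKD) against Control in the basal state, 27, 20, 30 and 24 after insulin in Control cells and in FoxK1 KD, FoxK2 KD and DKD cells, 3 and 2 for FoxK1 KD and DKD against Control after insulin, and 6, 1 and 5 for the difference in insulin effect in FoxK1 KD, FoxK2 KD and DKD cells. When a fit held nothing but the groups compared, they were 0 (FoxK1 KD basal), 0 (FoxK2 KD basal), 5, 21, 30 and 24 (insulin in the same 4 genotypes) and 1 (difference, DKD). With the GC and length trend removed, they were 17 (insulin in FoxK1 KD) and 1 (FoxK1 KD against Control after insulin). At FDR below 0.25 they were 26, 3 and 34 (basal), 34, 34, 36 and 33 (insulin), 3 (FoxK1 KD against Control after insulin), and 4 and 8 (difference, FoxK1 KD and DKD). At FDR below 0.25 and a fold change above 1.5 they were 1, 2 and 7 (basal), 8, 6, 6 and 6 (insulin), 1 (FoxK1 KD against Control after insulin), and 3 and 5 (difference, FoxK1 KD and DKD). The difference in DKD cells gave 1 member with TMM without ribosomal protein genes, limma-voom or the replicate block. Leaving out 1 sample gave 0 to 13 (FoxK1 KD), 0 to 1 (FoxK2 KD) and 7 to 13 (DKD) members in the basal state, 9 to 22, 7 to 15, 11 to 24 and 7 to 16 after insulin, 0 to 2 for FoxK1 KD against Control after insulin, and 1 to 4 for the difference in DKD cells. Looser thresholds call more genes by construction, and the cause of the other shifts was not tested. Shares of all genes called are given above for the FDR 0.25 settings and not for the other settings. The member counts under those other settings are therefore not read as particular to the members. Of 56 named calls, 23 kept their call under all settings. Replicate numbers did not pair the samples (mean correlation of 99 same-number pairs −0.013, 3 samples correlating best with their own number), and the replicate block lost 6 of the 56 calls. In the simulation, with 200 of 11368 genes changed, about 64.2% of 1.5-fold changes were recovered. That share need not hold for the members. Their median standard error was 0.156 for DKD against Control in the basal state, against 0.130 over all tested genes.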
